A study of Mus musculus with 8 samples.

Results

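Aminoacyl-tRNA synthetases were followed across the mouse heart after transverse aortic constriction (TAC), an operation in which a suture tied around the aortic arch loads the left ventricle with pressure. The members were taken by symbol, as 1 capital letter followed by ars with or without a final 1 or 2, together with Eprs, Farsa and Farsb, and 37 of the 32285 listed genes met this rule. The 17 symbols ending in 2 were taken as mitochondrial (among them Aars2, Cars2, Ears2, Fars2, Hars2, Iars2, Lars2, Mars2, Nars2, Pars2, Rars2, Sars2, Tars2, Vars2, Wars2 and Yars2). The other 20 were taken as cytosolic (Aars, Cars, Dars, Eprs, Farsa, Farsb, Gars, Hars, Iars, Kars, Lars, Mars, Nars, Qars, Rars, Sars, Tars, Vars, Wars and Yars). The study compared sham-operated hearts, which had the same operation without the ligature, with hearts 2, 4 and 6 weeks after TAC. All animals were male C57BL/6J mice that were 8 weeks old at surgery. Each condition was measured in 1 Visium section, in which spots on a slide capture the RNA of the tissue above them, and in 1 10x droplet library of dissociated heart. The labels describe nuclei for the libraries and the methods describe cells, and the barcodes are called cells here without deciding between them.

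Aminoacyl-tRNA synthetases attach each amino acid to its tRNA, which the ribosome then reads during translation. Cytosolic and mitochondrial translation use separate enzymes for most amino acids, while Kars and Gars are known to supply both compartments from 1 gene each. In the cytosol Eprs, Iars, Lars, Mars, Qars, Rars, Kars and Dars are held with scaffold proteins in the multi-tRNA synthetase complex, and the other cytosolic synthetases work outside it. Lars charges leucine in the cytosol and is also known as a leucine sensor of the mTORC1 pathway, and Lars2 charges leucine in mitochondria. Heart muscle depends on mitochondria, whose ribosomes make subunits of the respiratory chain. Several cytosolic synthetase genes are known targets of ATF4, the transcription factor of the amino acid and integrated stress response.

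With 1 section and 1 library per condition, no difference between conditions was tested. The sources used here do not say how many hearts went into a library. By the labels, the sham and TAC-2w sections shared a batch and the sham and TAC-6w libraries shared a batch, and every other contrast with sham cannot be told apart from a contrast between batches. Levels are given in CPM, the unique molecular identifiers (UMIs) of a gene per 1000000 UMIs of the sample. Each UMI stands for 1 captured molecule read at 1 end, so that levels were not divided by gene length. For the libraries the methods describe kits for either end, and the end is left undecided here. Intervals are 95% intervals that cover counting error only. The sections held 1228 to 2193 spots with 25996378 to 48754396 UMIs in all, and 42.2 to 51.5% of these came from mitochondrially encoded genes. The libraries kept 5399 to 7965 cells each after filtering, with a median of 4449 to 10717 UMIs per cell. The 6 cardiomyocyte markers were detected in all sections and summed to 26362 to 35607 CPM. Between 9 and 30 cell barcodes were shared by any 2 libraries, at most 0.359% of the smaller one.

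The sequences below show where the ATF4 composite element, spelled TGATGNAA and searched on both strands, lay in the promoters of the cytosolic members, since ATF4 is known to raise many of these genes together when amino acids run short. RefSeq promoters of GRCm38.p6, from 250 bases before to 50 bases after the annotated start, were given for 13 of the 20 cytosolic and 14 of the 17 mitochondrial members. The element was in 5 of the 13 cytosolic promoters (38.5%) and 0 of the 14 mitochondrial ones, against 3.97% of 32851 mouse promoters. The capitals mark the element, read on the strand of the gene, in a window of 30 bases.
Aars (alanine), chr8:111033851-111033858, plus strand, 9 bases after the start: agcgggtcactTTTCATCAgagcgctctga
Gars (glycine), chr6:55037971-55037978, plus strand, 30 bases before the start: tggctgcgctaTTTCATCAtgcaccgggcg
Iars (isoleucine), chr13:49682137-49682144, plus strand, 7 bases after the start: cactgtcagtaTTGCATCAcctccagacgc
Tars (threonine), chr15:11399666-11399673, minus strand, 15 bases before the start: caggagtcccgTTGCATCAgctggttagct
Yars (tyrosine), chr4:129189906-129189913, plus strand, 3 bases after the start: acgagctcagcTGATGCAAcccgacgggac

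Each of these 5 genes is shown with 1 match, and not every match found in their promoters is shown. The start used for Aars and for Yars lay inside the gene and was not its first annotated base. These genes span chr8:111027778-111055569 and chr4:129189734-129219240. A match of letters is a description and not a site of binding. The E-box CACGTG, searched in the same way, was in 4 of the 13 cytosolic promoters, 1 of the 14 mitochondrial ones and 7.15% of all promoters. Members with no promoter given included Cars, Hars, Lars, Nars, Rars, Vars, Wars, Hars2 and Pars2.

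All 37 members were detected in every section and every library, and Lars2 was the highest member in all 8 samples. Its level was 4.05 to 9.04 times that of the next member in the sections and 6.29 to 16.7 times in the libraries. The 20 cytosolic members each lay between 6.65 (Cars, the cysteine enzyme, in the TAC-2w section) and 60.7 CPM (Wars, the tryptophan enzyme, in the TAC-4w section) in the tissue. In the libraries they reached from 10.2 (Yars, TAC-4w) to 132 (Eprs, the fused glutamate and proline enzyme, sham). The 16 mitochondrial members other than Lars2 were lower, at 1.94 (Pars2) to 43.0 (Iars2) CPM in the sections and 1.11 (Pars2) to 26.6 (Iars2) in the libraries. Iars2, for isoleucine, was the highest of these 16 in all 8 samples.

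**Figure D1:**
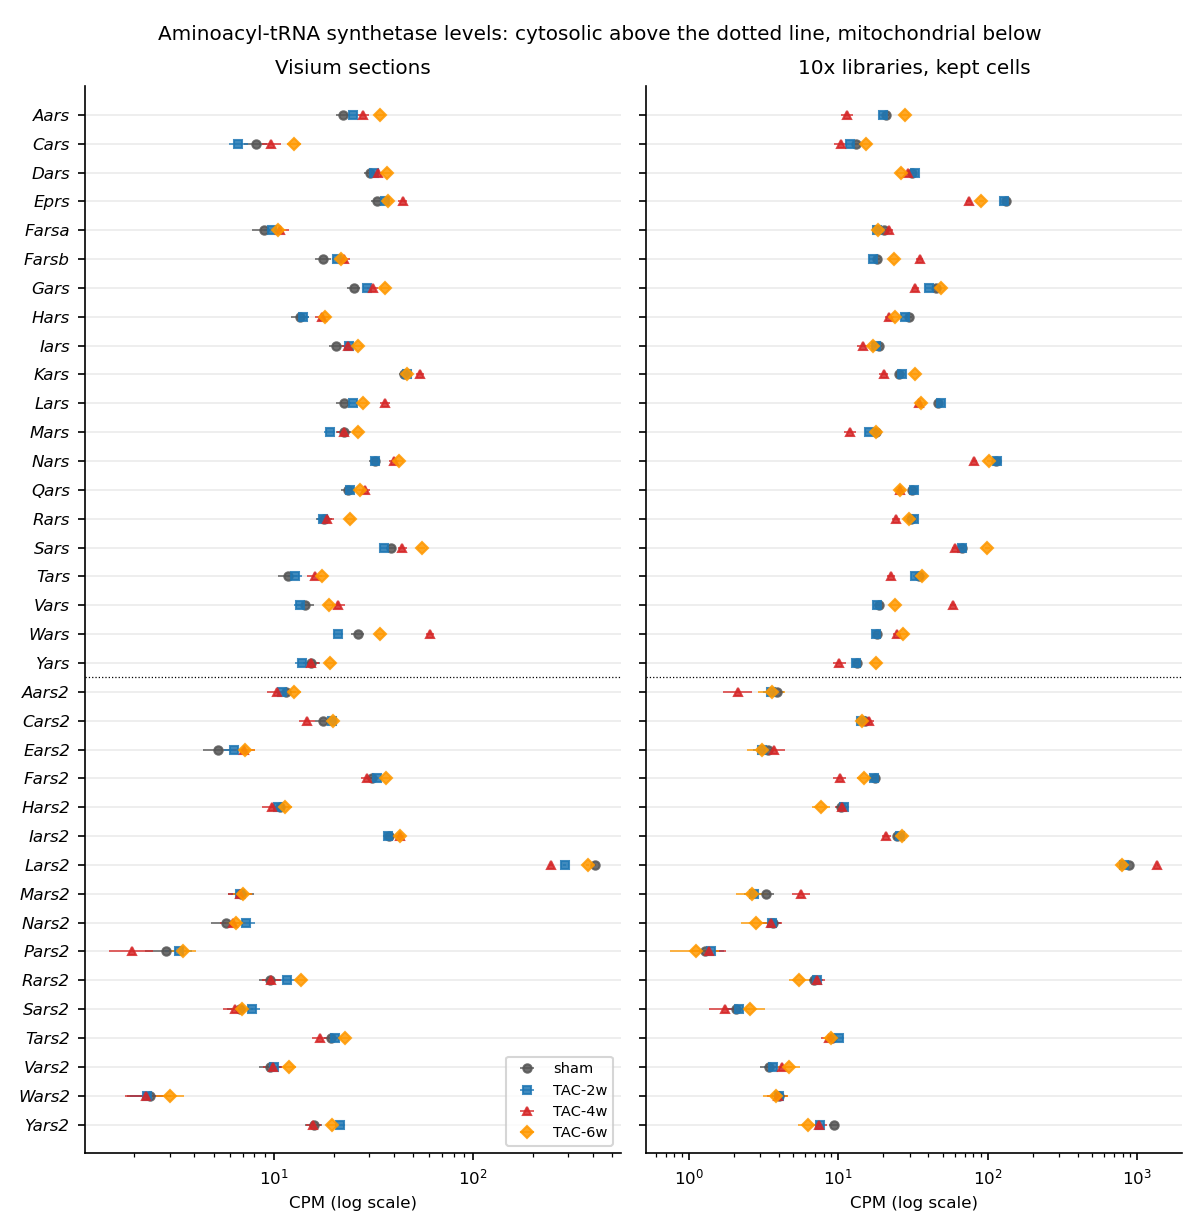
Levels of 36 members in CPM (horizontal log axes) in the 4 sections (left) and 4 libraries (right), 1 symbol per condition with its 95% Poisson interval. Lars2 stands apart from the others in every sample, between 246 and 1359 CPM.

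Taken as a class, the mitochondrial synthetases outweighed the cytosolic ones in 3 of the 4 sections and in all 4 libraries only through Lars2. The summed cytosolic level was 449.8 in the sham, 459 in the TAC-2w, 579 in the TAC-4w and 575 in the TAC-6w section. The summed mitochondrial level without Lars2 was 199.6, 217, 196 and 234 in the same order, which is 33.9 to 47.2% of the cytosolic sum. In the libraries the cytosolic sum was 746 in sham, 735 in TAC-2w, 626 in TAC-4w and 740.5 in TAC-6w. The mitochondrial sum without Lars2 was 122, 121, 112 and 113, or 15.2 to 17.8% of the cytosolic sum. Without Lars2 the ratio of mitochondrial to cytosolic synthetase RNA was thus higher in the section than in the library in all 4 conditions. With Lars2 it was higher in the library in 3 of the 4, at 1.10 in the section and 1.27 in the library at TAC-2w, 0.764 and 2.35 at TAC-4w, 1.06 and 1.21 at TAC-6w, and 1.35 and 1.34 in sham. In such summed tissue, fewer cells of a type and less RNA per cell cannot be told apart.

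Lars2 and Lars, the enzymes for the same amino acid, did not follow each other over the samples. Lars2 was at 407 CPM in the sham, 288 in the TAC-2w, 246 in the TAC-4w and 376 in the TAC-6w section. Lars was at 22.4, 24.9, 36.2 and 28.0 in the same order. Thus the section lowest in Lars2 was the highest in Lars, and the number of Lars2 UMIs per Lars UMI went from 18.2 in sham to 11.6, 6.80 and 13.4. In the libraries Lars2 was at 878 in sham, 810.3 in TAC-2w, 1359 in TAC-4w and 786 in TAC-6w. Lars was at 46.6, 48.9, 34.6 and 36.0, giving 18.9, 16.6, 39.3 and 21.8 Lars2 UMIs per Lars UMI. The lower Lars of the TAC-4w library (0.743 of sham) turned to 1.06 with cell types weighted equally, where Lars2 was at 1.18. The TAC-4w sample was therefore lowest in Lars2 among the sections and highest among the libraries. Lars2 made up 55.6 to 67.1% of mitochondrial synthetase UMIs in the sections and 87.0 to 92.4% in the libraries.

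Within each section the Lars2 level followed the number of UMIs of the spot. In spots of 500 to 10000 UMIs, called shallow here, Lars2 was 3.38 times as high in the sham, 3.19 in the TAC-2w, 2.90 in the TAC-4w and 5.16 in the TAC-6w section as in spots of 20000 UMIs or more. Shallow spots were 36.5% of spots in the sham, 6.79% in the TAC-2w, 13.6% in the TAC-4w and 32.1% in the TAC-6w section. The sections with many shallow spots were those with the higher Lars2. In the sham section they held 12.98% of all UMIs and 31.3% of Lars2 UMIs, and in the TAC-6w section 8.40% and 28.6%. Of the shallow spots, 597 of 611 in sham and 691 of 705 in TAC-6w had a shallow spot among their neighbours, and 593 and 667 were surrounded by 6 tissue spots. Where so many spots are shallow, most would have a shallow neighbour under random placement too. The counts of the sham and TAC-6w sections therefore do not measure whether the shallow spots lay together. In the sections with fewer shallow spots, 128 of 140 in TAC-2w and 160 of 167 in TAC-4w had a shallow neighbour. Their placement was not tested. Edge spots of the tissue were not the higher ones in the sham and TAC-6w sections. Lars2 was at 379 in edge and 412 in interior spots of the sham section and at 324 and 381 in the TAC-6w section. In the TAC-4w section edge spots were the higher ones, at 294 against 240.3.

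**Figure D2:**
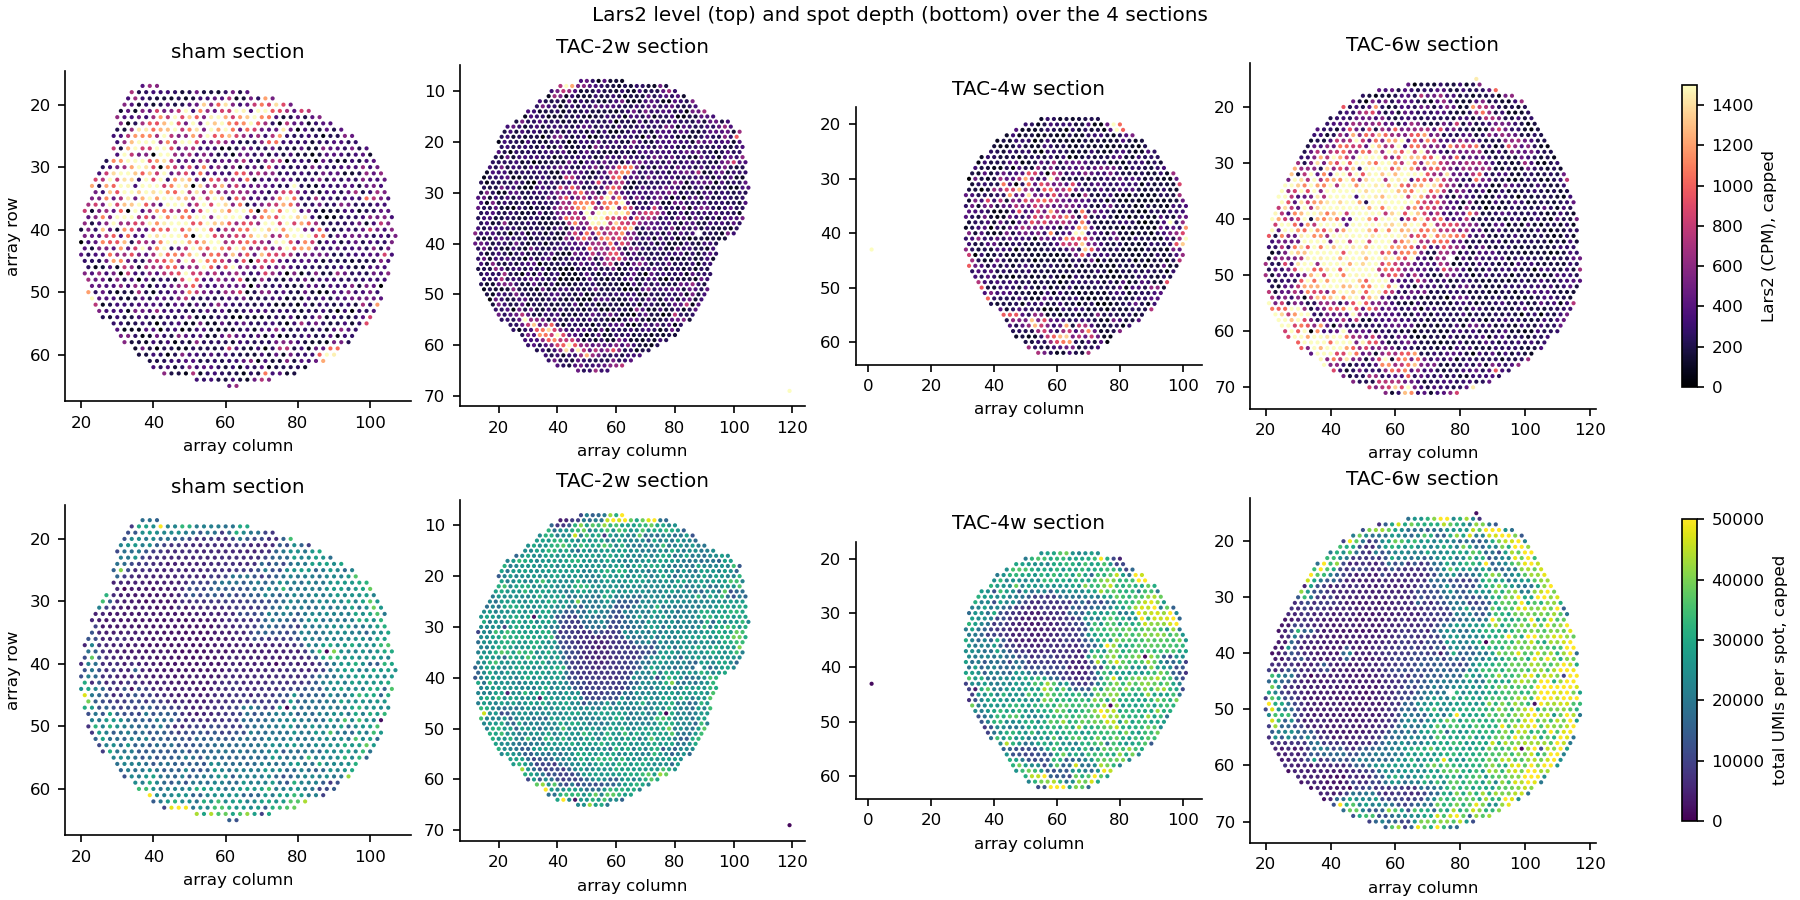
Every spot of the 4 sections with at least 500 UMIs at its row and column on the slide, coloured by Lars2 in CPM (top, capped at 1500) and by the total UMIs of the spot (bottom, capped at 50000). This leaves out 2 spots of the TAC-2w and 1 of the TAC-6w section. The bright Lars2 areas in the upper row lie over the dark areas of low spot totals in the lower row, widest in the sham and TAC-6w sections, where 611 and 705 spots were shallow.

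No other member did this. The shallow-to-deep ratio of the other 36 members had a median of 0.873 in the sham, 0.952 in the TAC-2w, 0.885 in the TAC-4w and 0.968 in the TAC-6w section. Over the 4 sections it lay between 0.350 and 2.52, and Pars2 in the TAC-4w section, the proline enzyme with the lowest level there, was the only value above 2. The cytosolic sum differed by a factor of 0.884 to 1.01, and the mitochondrial sum without Lars2 by 0.817 to 0.923. Gm42418, a feature of ribosomal-RNA-like sequence, moved with Lars2, at 4.10, 4.23, 3.96 and 5.63 times its deep-spot level. Haemoglobin genes were also higher in shallow spots, by 2.72 to 6.69 times, while the cardiomyocyte markers (0.922 to 1.04 times) and the mitochondrially encoded genes (0.930 to 1.05 times) were nearly level. Among all genes with at least 50 UMIs over both depths, Lars2 ranked 15 of 9713 by this ratio in the sham, 53 of 11226 in the TAC-2w, 39 of 10952 in the TAC-4w and 3 of 11775 in the TAC-6w section. The part of the ribosomal-RNA-like feature and of blood in the Lars2 level was not tested.

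**Figure D3:**
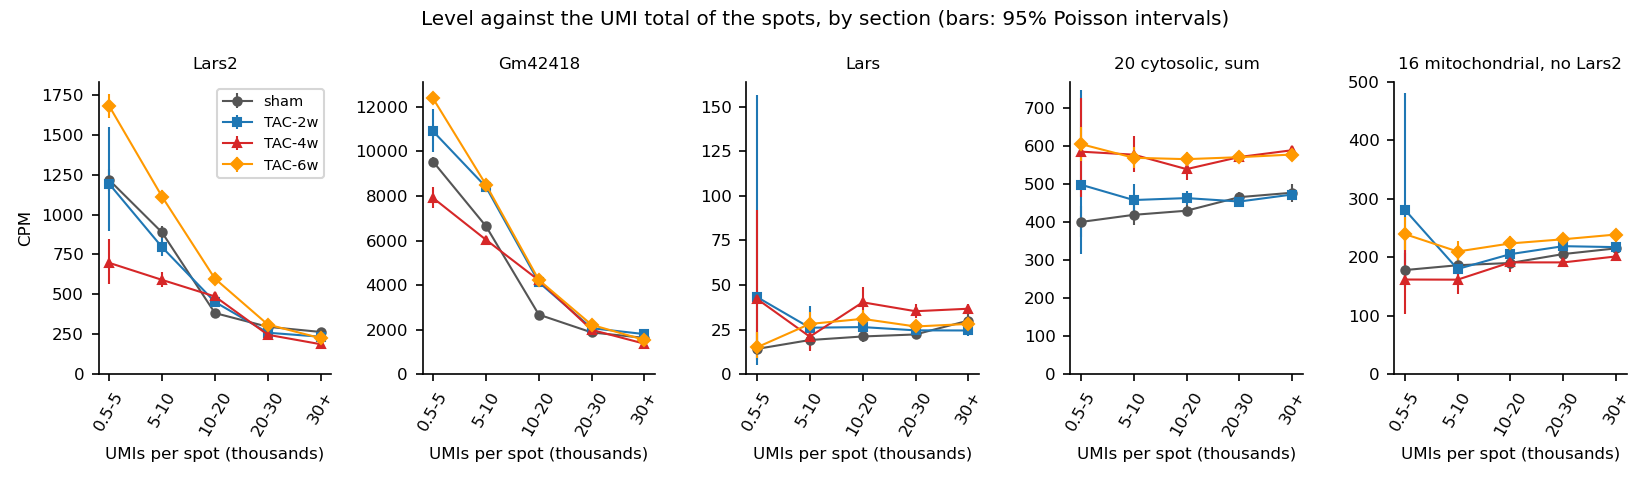
CPM of Lars2, Gm42418, Lars, the summed cytosolic members and the summed mitochondrial members without Lars2 (vertical axes) against the UMI total of the spots in 5 bins, 1 line per section with 95% Poisson intervals. Lars2 fell from 1216 to 265 in the sham section and from 1678 to 226 in the TAC-6w section between the shallowest and the deepest bin, while the cytosolic sum of shallow spots was 0.884 and 1.01 times that of deep spots in these sections.

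Since depth and Lars2 moved together, the sections were also compared at like depth. Among spots of 10000 to 20000 UMIs Lars2 was at 384 in sham, 453 in TAC-2w, 487 in TAC-4w and 599 in TAC-6w. Among spots of 20000 to 30000 UMIs it was at 298, 261, 248 and 312. Across the 5 bins of spot totals, the ratio to sham was above 1 in 1 bin for TAC-2w (0.876 to 1.18), 1 for TAC-4w (0.574 to 1.27) and 4 for TAC-6w (0.853 to 1.56). The order of the sections in Lars2 thus depended on the depth compared. The cytosolic sum was above sham in all 5 bins in TAC-4w (1.23 to 1.46) and in TAC-6w (1.21 to 1.51).

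The same relation to depth held in the cells, read only in fibroblast-like, macrophage-like, B cell-like, endothelial cell-like and neutrophil-like cells. Within a cell type and library, Lars2 was higher in the shallowest than in the deepest cells in 18 of 18 contrasts, by 1.13 to 6.22 times with a median of 2.91. Gm42418 was higher in 17 of 18 with a median of 2.05. Lars was higher in 7 of 18, the cytosolic sum in 4 of 18 (median 0.975) and the mitochondrial sum without Lars2 in 12 of 18 (median 1.15). These contrasts are descriptions, since cells of 1 library share their preparation. Endothelial cell-like cells joined clusters with medians of 3927.5 and 10091 UMIs, and the part of this in their contrasts was not tested.

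Over the spots of a section, Gm42418 was the gene most like Lars2, with a Pearson correlation of log-normalized values of 0.66 to 0.87 and a mean of 0.75. Ttn, the giant sarcomere protein (0.50), mt-Atp8 (0.49) and the haemoglobin genes Hba-a2 and Hbb-bs (0.48 each) came next among 1738 genes. The other 36 members had mean correlations of -0.14 to -0.03 with Lars2. With Lars, the 36 members other than Lars had -0.07 to 0.05 over spots, so that low values there were not particular to Lars2. Over 42 sums of a cell type in a library, Cds2 was the most like Lars2 (0.75), Anxa11 (0.63), Itgb3 (0.63) and Ralgapa2 (0.62) were also among the 5 genes most like it, and Gm42418 reached 0.60. Over the same sums the genes most like Lars were Cct5 (0.94), Htatsf1 (0.92), Ddost, Mybbp1a and Dnajc24 (0.90 each), and the other members had a median of 0.66 with it against -0.20 with Lars2. Spots share their section and sums share their library and depth, and so these values carry no test.

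The cells fell into 14 types by their markers, each called by the type it resembled, and the members' levels were read in each of them. Types are compared here over the libraries with at least 50 cells of the type. Lars2 was highest in platelet-like (mean over libraries 1741 CPM), neutrophil-like (1659) and endothelial cell-like cells (1519) and lowest in dendritic cell-like cells (476). Depth went with this order at both ends, since the median was 927 UMIs in platelet-like, 3130.5 in neutrophil-like and 5112.5 in endothelial cell-like cells but 12648 in dividing cell-like and 11797.5 in dendritic cell-like cells, and its part in the order was not tested. It did not go with it throughout, as cardiomyocyte-like cells had a median of 2186 UMIs and stood ninth. Lars was highest in endothelial cell-like (51.4) and fibroblast-like cells (47.0) and lowest in red blood cell-like (4.16), platelet-like (7.68) and neutrophil-like cells (9.79), with 0 Lars UMIs in the 552 platelet-like cells of TAC-4w, which allows up to 4.02 CPM. The types at the top of the Lars2 order therefore included those near the bottom of the Lars order. The mean Lars2 level divided by the mean Lars level ran from 13.4 in dendritic cell-like to 227 in platelet-like cells. The last value is uncertain, since Lars was at 15.4 CPM in the 53 platelet-like cells of sham and at 0 in TAC-4w. In the order of Lars2 means, 12 of 13 neighbouring types overlapped in their library values, and only the step from fibroblast-like (744 to 1056) to red blood cell-like cells (651 to 660) did not. Gm42418 averaged 70721 CPM in platelet-like cells and 28956 in neutrophil-like cells.

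**Figure D4:**
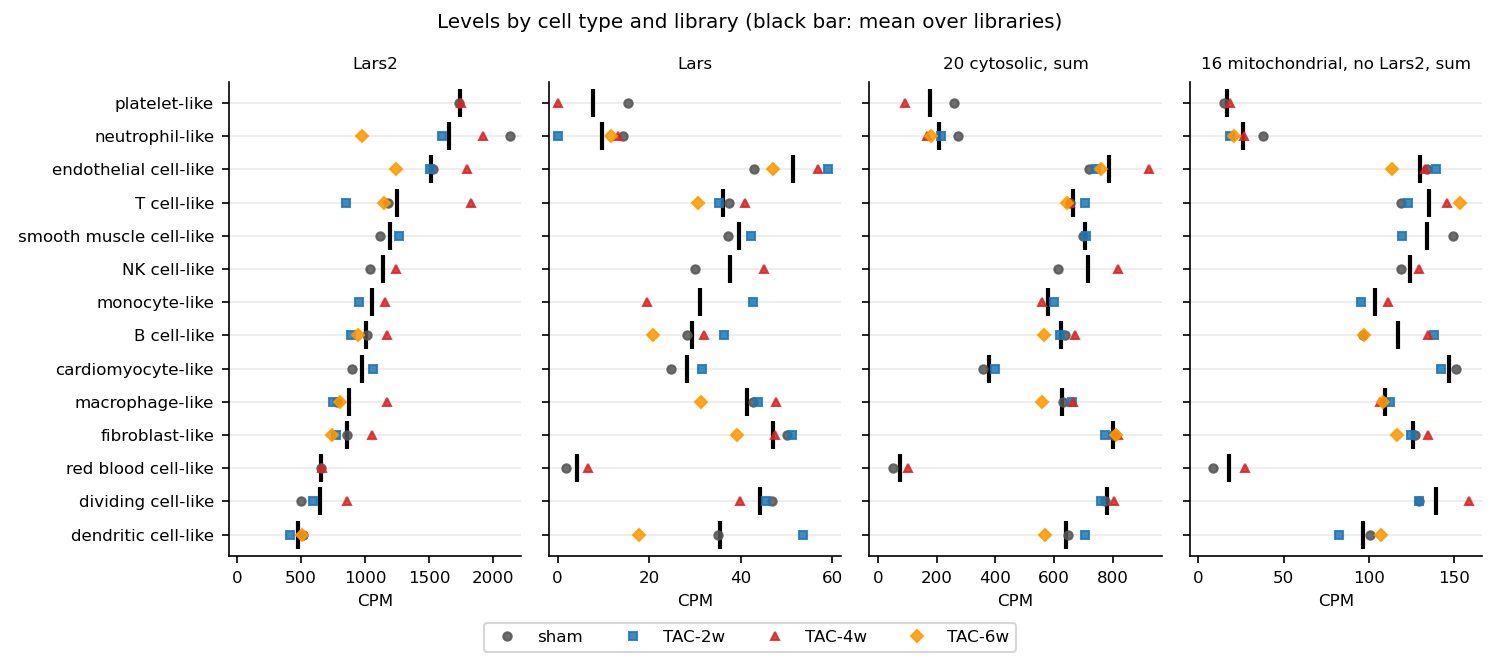
CPM (horizontal axes) of Lars2, Lars, the summed cytosolic members and the summed mitochondrial members without Lars2 in 14 cell types (rows, ordered by Lars2), 1 symbol per library with at least 50 cells of the type and a black bar at their mean. Platelet-like and neutrophil-like cells are high in Lars2 (1741 and 1659) and low in the 3 other measures.

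For the summed cytosolic synthetases 11 of 13 neighbouring types overlapped. They were highest in fibroblast-like (801), endothelial cell-like (787) and dividing cell-like cells (779.6) and stepped down without overlap from monocyte-like (558 to 599) to cardiomyocyte-like (359 to 398) and on to neutrophil-like cells (166 to 272). The mitochondrial sum without Lars2 had its highest mean in cardiomyocyte-like cells (147, of which Fars2 gave 55.6), where it was 38.7% of the cytosolic sum, against 15.7% in fibroblast-like and 9.62% in platelet-like cells. The last share is uncertain, since in platelet-like cells this sum was 15.4 to 18.8 CPM over 2 libraries. These held 53 and 552 such cells, with a median of 927 UMIs. In the order of this sum 12 of 13 neighbouring types overlapped, with 142 to 151 in cardiomyocyte-like, 129 to 159 in dividing cell-like and 119 to 153 in T cell-like cells. Cardiomyocyte-like cells reached 50 cells in the sham and TAC-2w libraries only.

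Some members had a type of their own. Vars, for valine, was at 114 CPM in B cell-like cells and at 55.0 in T cell-like cells, the next type. Its level in B cell-like cells was 98.0 in the sham, 111 in the TAC-2w, 138 in the TAC-4w and 108 in the TAC-6w library. Farsb, the beta subunit of the cytosolic phenylalanine enzyme, was at 91.2 in B cell-like cells and at 23.2 in the next type. By library it was at 84.6, 79.5, 79.7 and 121 there, always above the mean of every other type, whereas Farsa, the alpha subunit, was highest in NK cell-like cells at 31.8 with monocyte-like cells next at 30.6. Mars2, the mitochondrial methionine enzyme, was also highest in B cell-like cells, at 13.7.

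Wars, an interferon-inducible member, was at 76.9 in endothelial cell-like cells and at 20.2 in fibroblast-like cells, the next type. Eprs was highest in smooth muscle cell-like (169.6) and fibroblast-like cells (145), and Nars, for asparagine, in macrophage-like cells (152). Sars, for serine, was highest in NK cell-like (99.5) and T cell-like cells (95.4). Fars2, the mitochondrial phenylalanine enzyme, stood out in cardiomyocyte-like cells at 55.6 against 22.1 in the next type, from 27 UMIs in the sham library (66.9 CPM) and 14 in the TAC-2w library (44.3 CPM).

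The TAC-2w and sham sections, which shared a batch, were compared first. Past a ratio of 1.5 in either direction there were 0 of 37 members, against 9.86% of all 12117 genes with at least 50 UMIs over both sections. Lars2 came nearest, falling to 0.707 of sham (interval 0.689 to 0.725), with Gm42418 at 0.846. Lars was at 1.11 (1.00 to 1.23), the cytosolic sum at 1.02 (0.997 to 1.04) and the mitochondrial sum without Lars2 at 1.08 (1.05 to 1.12), and these 3 were at 0.949, 0.872 and 0.928 when the total excluded the mitochondrially encoded genes and the features of ribosomal-RNA-like sequence. Among single members Yars2, for mitochondrial tyrosine, was highest relative to sham (1.36, 1.21 to 1.53) and Wars lowest after Lars2 (0.795, 0.721 to 0.877). The median ratio was 1.03 for cytosolic and 1.06 for mitochondrial members, beside 1.03 for all genes. The Lars2 ratio moved both ways with the treatment of the counts. Spots of 10000 to 30000 UMIs gave 0.865, averaging over spots gave 0.554, and leaving those genes and features out of the total gave 0.605. With the last treatment 1 of 37 members was past 1.5-fold, beside 13.6% of genes.

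**Figure D5:**
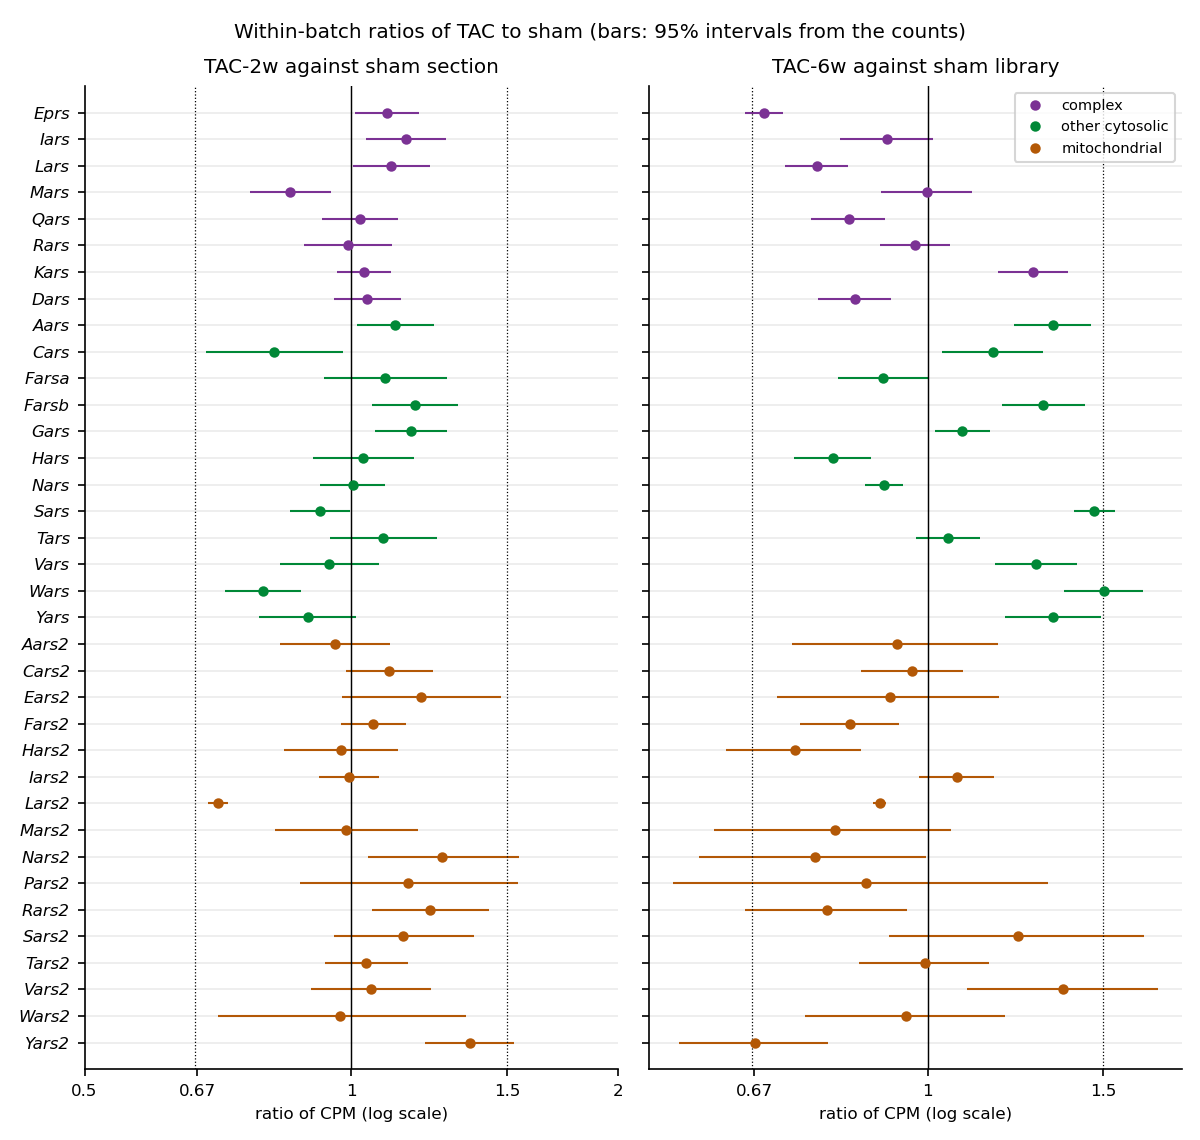
Ratio of TAC to sham in CPM (horizontal log axes) for 36 members, in the TAC-2w section (left) and the TAC-6w library (right), with 95% intervals from the counts and dotted lines at 1.5-fold either way. In the TAC-6w library the complex members lie mostly left of 1 (Eprs at 0.685) and the other cytosolic members mostly right of it (Wars at 1.503, Sars at 1.47).

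In the TAC-6w library, which shared a batch with the sham library, the cytosolic sum was level at 0.992 of sham (0.976 to 1.01), yet its members moved apart. Past 1.5-fold there was 1 of 37 members, Wars, against 23.9% of 14553 genes tested. This call, at 1.503, ended when mitochondrially encoded and ribosomal-RNA-like features left the total (1.46), with cell types weighted equally (1.48) and with cells thinned to 1000 UMIs (1.11). Without those features Eprs and Yars2 were past the limit instead, beside 24.9% of genes. The 8 members of the multi-tRNA synthetase complex summed to 334 CPM in sham and 276 in TAC-6w, a ratio of 0.827 (0.805 to 0.849), and 7 of the 8 were lower, as were 58.9% of all genes. Without Eprs the complex was at 201 and 185 CPM, a ratio of 0.920 (0.891 to 0.9502), close to the median of all genes. The 12 cytosolic members outside the complex summed to 412 in sham and 465 in TAC-6w, a ratio of 1.13 (1.10 to 1.15), and 9 of the 12 were higher. The median of the single ratios was 0.877 inside and 1.22 outside the complex, beside 0.929 for all genes. In 6 alternative treatments of the counts the summed ratios were 0.749 to 0.869 inside and 1.05 to 1.18 outside. This order was absent from the TAC-2w library, with medians of 1.04 inside and 0.953 outside, and from the TAC-4w library, at 0.784 and 0.775. It was also absent from the TAC-2w section, at 1.04 and 1.02. The TAC-4w section did show it, at 1.176 inside and 1.257 outside, and so did the TAC-6w section, at 1.197 and 1.335. In these sections, which crossed batches with sham, the medians inside and outside were both above 1. The split was seen after the values were known. Beside it, the median depth was 9131 UMIs per kept cell in sham and 4743 in TAC-6w, haemoglobin genes were at 11441 and 1435 CPM and mitochondrially encoded genes at 47204 and 27505 CPM, and their part in the split was not tested.

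Eprs, the most abundant member of the complex in the libraries, was at 132 CPM in sham, 129 in TAC-2w, 74.8 in TAC-4w and 90.7 in TAC-6w. The TAC-6w ratio to sham was 0.685 (0.655 to 0.716). Lars, also in the complex, was at 0.774 (0.720 to 0.831). Kars, the lysine enzyme, was the exception in the complex at 1.28 (1.18 to 1.38). Outside the complex, Wars was at 18.1 in sham, 17.9 in TAC-2w, 24.7 in TAC-4w and 27.2 in TAC-6w, with a TAC-6w ratio of 1.503 (1.37 to 1.65). Sars was at 67.5, 67.003, 60.1 and 99.3, and its TAC-6w ratio was 1.47 (1.40 to 1.54). Thus Wars and Sars were highest in the TAC-6w library, and Eprs was lower in both later libraries than in sham and TAC-2w. Fibroblast-like cells, among the types highest in Eprs, numbered 4487 in the sham and 431 in the TAC-4w library. Within their clusters 0 and 1, Eprs of TAC-4w was at 1.34 and 0.818 of sham, so that the lower TAC-4w total did not hold in both. Aars and Yars were both at 1.34, Farsb at 1.31 and Vars at 1.29. B cell-like cells, the type highest in Farsb and Vars, were 232 of 7965 kept cells in sham and 915 of 5399 in TAC-6w. The part of this difference in these ratios and in the split by the complex was not tested.

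The mitochondrial members were mostly lower at TAC-6w. Of the 17, 13 were below sham with a median ratio of 0.917, close to the 0.929 of all genes, and their sum without Lars2 was at 0.921 (0.883 to 0.960). Lars2 was at 0.895 (0.881 to 0.909), with Gm42418 at 0.656. Yars2 was at 9.42 in sham, 7.51 in TAC-2w, 7.48 in TAC-4w and 6.31 in TAC-6w, a TAC-6w ratio of 0.6703 (0.563 to 0.794). It was the lowest ratio among the mitochondrial members, and Hars2, for mitochondrial histidine, followed at 0.735. Vars2 and Sars2, for mitochondrial valine and serine, lay above sham at 1.37 and 1.23, with intervals of 1.10 to 1.70 and 0.914 to 1.65.

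Fibroblast-like cells also had Sars and Wars above and Eprs below sham at TAC-6w. There, 3 of 37 members were past 1.5-fold, beside 22.1% of genes. Sars was at 70.9 in sham, 71.1 in TAC-2w, 68.4 in TAC-4w and 110.1 in TAC-6w, a ratio of 1.55 (1.47 to 1.64). Wars was at 17.2, 15.2, 21.2 and 27.3, a ratio of 1.59 (1.42 to 1.78), and Yars2 was at 10.5, 8.44, 9.40 and 6.59, a ratio of 0.629. For Sars and Wars the TAC-6w value stood above the 3 others over the type as a whole. Eprs was at 158 in sham and 109.8 in TAC-6w (0.693, 0.659 to 0.727). Fibroblast-like cells of the sham library came from clusters 0 and 1 in similar numbers (1995 and 2329 cells), while those of TAC-6w came mostly from cluster 0 (2147 against 660 cells). Within cluster 0 and cluster 1 taken alone, Wars was at 1.44 and 1.49, Sars at 1.55 and 1.19 and Eprs at 0.7096 and 0.615 of sham. The TAC-6w value of Wars was not the highest in cluster 0, at 28.9 CPM against 43.1 in the 86 cells of TAC-4w. In cluster 1 it was at 22.3 in TAC-6w and 15.4 in TAC-4w.

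In endothelial cell-like cells 6 of the 24 members tested were past 1.5-fold at TAC-6w, beside 35% of genes. Wars was at 43.5 in sham, 58.2 in TAC-2w, 103 in TAC-4w and 103 in TAC-6w, from 90 UMIs in the last, a ratio of 2.38 (1.81 to 3.11). The type was made of 2 clusters in shares that differed, with 38.5% of its sham cells in cluster 12 (led by genes such as Npr3 and Plvap) against 22.1% of those from TAC-2w, 2.09% from TAC-4w and 12% from TAC-6w. Within cluster 4 alone Wars was at 74.2 in sham, 88.7 in TAC-2w, 103 in TAC-4w and 114 in TAC-6w, and the TAC-6w ratio was smaller, at 1.53 (1.13 to 2.08). Within cluster 12 Wars was at 24.8 in sham and 23.5 in TAC-2w, the only pair there with 50 cells each. Sars was at 69.7, 76.8, 85.4 and 116, a ratio of 1.66 (1.30 to 2.11), and 1.56 within cluster 4. Eprs (0.613), Qars (0.533), Mars (0.445) and Fars2 (0.656) were lower, and the TAC-6w values of Qars, the glutamine enzyme, and Mars, the cytosolic methionine enzyme, rested on 17 and 6 UMIs.

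In macrophage-like cells 6 of 33 were past 1.5-fold, beside 22.9% of genes. Eprs was at 65.0 in sham, 68.3 in TAC-2w, 74.1 in TAC-4w and 35.8 in TAC-6w, a ratio of 0.550 (0.453 to 0.665), so that the TAC-6w library stood below the 3 others. Iars (0.650), Cars (0.643), Nars2 (0.555) and Rars2 (0.552) were lower too, and Tars2, for mitochondrial threonine, was higher (1.53). These ratios are given without intervals and come from low levels in this type. The means over libraries were 13.9 CPM for Iars, 11.4 for Cars, 2.54 for Nars2, 6.43 for Rars2 and 12.5 for Tars2. In B cell-like cells 2 of 8 were past 1.5-fold, beside 30.7% of genes, and these were Eprs (0.452, 0.310 to 0.658) and Nars (0.627). At a finer resolution 82.1% of the TAC-6w cells of this type fell into a cluster led by Ighg2b, Igha and Jchain, with a median of 1880 UMIs, which held 15.5% of those of sham. Within the cluster that held 82.8% of the sham cells Eprs was at 0.5097 (0.253 to 0.956) and Nars at 0.306, from 13 and 7 TAC-6w UMIs. In dendritic cell-like cells 3 of 9 were, also beside 30.7%, and these were Dars, Eprs (0.522) and Lars, all lower. Vars (0.550) was the 1 of 5 past 1.5-fold in T cell-like cells, beside 27.6%. Over all 7 types with 50 cells in both libraries Eprs was below sham, from 0.221 in neutrophil-like cells, on 9 TAC-6w UMIs and under the minimum, to 0.868 (0.534 to 1.36) in T cell-like cells, whose interval held 1.

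Lars2 itself differed by type at TAC-6w. It was at 0.864 of sham (0.848 to 0.881) in fibroblast-like, 0.808 (0.756 to 0.863) in endothelial cell-like, 1.03 (0.990 to 1.08) in macrophage-like and 0.937 (0.859 to 1.02) in B cell-like cells. In neutrophil-like cells it fell from 2133 to 977, a ratio of 0.458 (0.407 to 0.515), the 1 member testable there, beside 39.7% of genes. Gm42418 was below sham in all 7 types compared, at 0.332 in neutrophil-like and 0.802 in macrophage-like cells, the lowest and the highest of the 7. Cells of like depth gave other values, with Lars2 at 0.443 to 0.678 of sham in 4 bins of endothelial cell-like, 0.490 to 1.25 in 5 bins of fibroblast-like and 0.463 to 1.12 in 4 bins of macrophage-like cells.

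Contrasts of TAC-4w with sham, crossed batches in both assays. In the TAC-4w section 3 of 37 members were past 1.5-fold, beside 18.5% of genes. Lars2 was at 0.604 (0.586 to 0.622), Lars at 1.61 (1.46 to 1.79) and Wars at 2.30 (2.11 to 2.51), from 26.4 in the sham section to 21.0, 60.7 and 34.3 in TAC-2w, TAC-4w and TAC-6w. In the TAC-4w section 18 of 20 cytosolic members were above sham with a median of 1.23, and 5 of 17 mitochondrial members were, with a median of 0.958, beside a median of 1.15 over all genes. The endothelial markers summed to 1222 CPM in the sham, 1168 in the TAC-2w, 1608 in the TAC-4w and 2126 in the TAC-6w section, and the macrophage markers to 211, 191, 407 and 307, with all 6 markers of each list detected. Their part in the Wars level was not tested.

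In the TAC-6w section 2 of 37 members were past 1.5-fold, Aars (1.53, 1.39 to 1.68) and Cars (1.55, 1.33 to 1.83), beside 19.3% of genes. All 20 cytosolic members were above sham there, with a median of 1.29, and so were 16 of 17 mitochondrial members, with a median of 1.17. Of all genes, 85.7% were above sham with a median of 1.23 (a shift of 0.30 on the log2 scale), so that the whole family moved about as far as the typical gene. Mitochondrially encoded genes were 51.5% of UMIs in the sham and 44.2% in the TAC-6w section. The 5 cytosolic members with the ATF4 element had a median ratio of 1.43 in this section against 1.18 for the 8 whose promoter lacked it, and 1.08 against 0.951 in the TAC-6w library. In the TAC-4w library the order was opposite, at 0.726 against 0.862, as it was in the TAC-2w library, at 0.958 against 0.982. The TAC-2w and TAC-4w sections had 1.12 against 1.04 and 1.25 against 1.21. The 5 genes were not tested as a set.

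The TAC-4w library stood apart from the other 3. Here 10 of 37 members (27.0%) were past 1.5-fold, beside 50.2% of genes. Vars was highest (3.13, 2.93 to 3.35), followed by Farsb (1.94, 1.80 to 2.10), Mars2 (1.732) and Lars2 (1.55, 1.53 to 1.57), while Aars (0.548), Aars2 (0.552), Eprs (0.564), Fars2 (0.580), Tars (0.653) and Mars (0.664) were lower. Fibroblast-like cells, first or second among the types in Aars, Eprs, Tars, Mars and Aars2, numbered 4487 in the sham and 431 in the TAC-4w library. Within them 3 of 37 members were past 1.5-fold, beside 22.3% of genes, with Pars2 higher and Aars2 and Nars2 lower. The cytosolic members had a median ratio of 1.05 there, beside 1.09 for all genes. B cell-like cells, where Vars, Farsb and Mars2 had their highest levels, numbered 232 in the sham and 2431 in the TAC-4w library. With each cell type weighted equally the Vars ratio was 1.41 and the Farsb ratio 1.25. Neutrophil-like cells numbered 145 and 1254, and platelet-like cells 53 and 552, the types highest in Lars2. Within types Lars2 was above sham in 9 of 10 types in the TAC-4w library, at 0.902 to 1.72, reaching 1.503 in macrophage-like, 1.56 in T cell-like and 1.72 in dividing cell-like cells. Gm42418 was above sham in 6 of the 10, and haemoglobin genes were at 21866 CPM in the TAC-4w and 11441 in the sham library. The median depth was 4449 UMIs per kept cell in TAC-4w and 9131 in sham, and Lars2 was at 1.65 of sham with cells thinned to 1000 UMIs. With cell types weighted equally it was at 1.18. In cells of like depth it was above sham in 3 of 3 bins of fibroblast-like (1.24 to 1.43) and of macrophage-like cells (1.21 to 1.77) and in 3 of 5 bins of endothelial cell-like cells (0.667 to 1.49).

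The TAC-2w library resembled sham in this family, with 0 of 37 members past 1.5-fold beside 5.37% of genes, although the pair crossed batches. Its ratios ran from 0.798 (Yars2) to 1.11 (Tars2). In fibroblast-like and macrophage-like cells of this library 0 of the members were past 1.5-fold too, beside 4.72 and 3.73% of genes.

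The 16 other genes of the pathway were followed as a fixed list. Their median ratio to sham was 1.14 in the TAC-2w, 1.12 in the TAC-4w and 1.19 in the TAC-6w section, and 1.06, 0.845 and 0.939 in the libraries. All genes had medians of 1.03, 1.15 and 1.23 in the sections and 1.03, 0.933 and 0.929 in the libraries. Past 1.5-fold there were 2 of 16 in the TAC-2w (12.5%), 3 in the TAC-4w and 3 in the TAC-6w section (18.75% each), shares near the 9.86, 18.5 and 19.3% of all genes. In the TAC-2w section Eef1e1, a scaffold protein of the complex (1.51), and Pstk, a kinase of selenocysteine tRNA charging (1.54), were past 1.5-fold. In the TAC-4w section Dtd1 (1.69) and Dtd2 (1.59), which remove D-amino acids from tRNA, and Eef1a1 (1.61), the elongation factor that carries charged tRNA to the ribosome, were. In the TAC-6w section Eef1e1 (1.66), Dtd2 (1.71) and Eef1a1 (1.58) were, and 0 of the 16 were lower past 1.5-fold in any section. The scaffold genes Aimp1 and Aimp2 were at 1.06 and 1.17 of sham in the TAC-6w library, where 7 of the 8 enzymes of their complex were lower.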

How the data were processed

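Per the file headers, the deposited counts were UMIs per gene and barcode made by the authors with Cell Ranger 6.0.0 (libraries) and Space Ranger 1.2.0 (sections), whereas the submitters' processing notes list Cell Ranger 7.0.0, Space Ranger 1.3.1 and mm10. From these counts, barcodes were kept within limits of 200 and 6000 genes and of 500 and 30000 UMIs where mitochondrial genes gave under 15% of UMIs, and the 3.2% with the highest Scrublet score (scanpy 1.11.5, expected rate 7%) were removed. Each library was left with 26924592 to 73149357 UMIs. Seurat 5.3.0 (R 4.3.3; log-normalization to 10000, 3000 variable genes, 30 components, resolution 0.25) gave 18 clusters, named from 6 markers per type; no member was among the variable genes. Clustering again with the members allowed therefore gave nothing to compare.

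UMIs were summed per section, library or cell type in each library (Python 3.11.15, pandas 2.3.3, numpy 2.4.6) and divided by the total. Levels have exact Poisson and ratios exact conditional binomial 95% intervals (scipy 1.17.1). The ratio intervals alone were tried on simulated Poisson counts, the model they assume, which says nothing about spread between samples. A gene counted as past 1.5-fold at a ratio of at least 1.5 or at most 0.667, among genes with at least 50 UMIs over both samples. A count of 0 allows up to 3 UMIs. Alternatives left features out of the total, averaged over spots, restricted spots, thinned cells to 1000 UMIs, kept all barcodes or all doublets, set the mitochondrial share to 5%, weighted types equally, or changed fold, floor and resolution.

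Samples were grouped by the labels. The members and lists were chosen with earlier results of these data known. Full values were planned for Lars, Lars2 and members past 1.5-fold in a within-batch comparison; the other members singled out, and the split by the complex, were chosen after their values were seen. Genes most like Lars2 or Lars were the 5 non-members with the highest Pearson correlation. Promoters came from RefSeq (GRCm38.p6). Some items are not reported here. Figures were drawn with matplotlib 3.10.9.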

Additional observations from a re-analysis of the deposited data

Results flagged for a closer look

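Barcodes left out for a mitochondrial share of 15% or more enter only the alternative that kept all barcodes. They held Lars2 above the level of the sham library in all 3 TAC libraries. Lars2 was at 1817 CPM in 991 such barcodes of the sham library, 2006 in 951 of TAC-2w, 2530.2 in 1041 of TAC-4w and 2723 in 199 of TAC-6w. Their median depth was 2399, 2402, 1105 and 907 UMIs in the same order, and its part in the Lars2 level was not tested. These barcodes held more Lars2 than the kept cells of their own library in each condition. The cytosolic sum in them was 454, 478, 632 and 513 CPM, below the kept cells in 3 of the 4 libraries, and Gm42418 was at 37686, 42045, 54111 and 43189.

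Lars2 at TAC-4w moved in opposite directions by assay, at 0.604 of sham in the section and 1.55 of sham in the library. The difference between these ratios was not tested, since each rests on 1 sample per condition, and TAC-4w and sham were in different batches in both assays.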

How the results depend on the processing

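No paired analysis was possible because each condition had 1 section and 1 library. The alternatives for TAC-4w, for the TAC-6w section and the TAC-2w library, and for the complex, Vars and Farsb, and the values within single clusters or without Eprs, were chosen after seeing the data. Of the ratios and counts planned for the within-batch pairs, 43 alternative values stayed within the interval of the reported one, or within 1.5 times of a count, 30 moved outside and 2 changed direction, counted only where the interval of the reported value lay wholly on the other side of 1. Sums whose interval held 1 and that went from one side of it to the other are among the 30. The 43 include the clustering with the members allowed, for Lars2 in fibroblast-like, macrophage-like, endothelial cell-like and B cell-like cells. Those values could not differ from the reported ones, since no member was among the variable genes. The cause was not tested unless an alternative holds it by construction.

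In the TAC-2w section, with mitochondrially encoded and ribosomal-RNA-like features taken out of the total, Lars2 was at 0.605, the cytosolic sum at 0.872 and the mitochondrial sum at 0.711. Lars turned to 0.949 and the mitochondrial sum without Lars2 to 0.928, and 1 member (Lars2) was past 1.5-fold, beside 13.6% of genes. Averaged over spots, Lars2 was at 0.554, Lars at 1.23, the cytosolic sum at 1.05 and the mitochondrial sum at 0.689. In spots of 10000 to 30000 UMIs, Lars2 was at 0.865 and the mitochondrial sum at 0.949. For the TAC-6w section the same averaging and spots turned Lars2 to 1.14 and 1.26.

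In the TAC-6w library, taking those features out gave Lars2 0.868, the cytosolic sum 0.963 and the mitochondrial sum 0.871. It put 2 members past 1.5-fold (Eprs and Yars2), beside 24.9% of genes, and a 2-fold limit left 0, beside 9.23% of genes. For Lars2, the cytosolic and the mitochondrial sum, thinning gave 0.871, 0.918 and 0.875. Equal weights of the types gave 0.796, 0.937 and 0.812, with 0.989 for the mitochondrial sum without Lars2. The cytosolic sum was at 1.04 over all barcodes and 0.961 under a mitochondrial share of 5%. Lars2 moved to 0.841 without those features and 0.895 under 5% in fibroblast-like, 0.983 under 5% and 0.625 when thinned in endothelial cell-like, 1.11 when thinned in macrophage-like and 0.783 when thinned in B cell-like cells. For TAC-2w the cytosolic sum turned to 1.02 both over all barcodes and at equal weights. For TAC-4w equal weights turned Lars to 1.06, the cytosolic sum to 1.06 and the mitochondrial sum without Lars2 to 1.13.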

Other observations

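Further lists gave these values. In the sections the fibroblast markers summed to 709.8 CPM in the sham, 712 in the TAC-2w, 898 in the TAC-4w and 1189 in the TAC-6w section, and the neutrophil markers to 58.2, 51.9, 127 and 42.7. Eef1a2, the elongation factor isoform of muscle, was at 567 in the sham, 462 in the TAC-2w, 569.9 in the TAC-4w and 529 in the TAC-6w section. Tufm, which carries charged tRNA to the mitochondrial ribosome, was at 159.8, 181, 133 and 183 in the same order, lowest in the section that was also lowest in the mitochondrial sum without Lars2.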
